A study of Glycine max with 4 samples.

Results

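Transcripts that were detected in soybean leaves only after melatonin alone numbered 393 of 55787, or 0.704%, and came from 381 of 46367 loci. They were selected on the read counts and RPKM (reads scaled to the length of the transcript in kilobases and to the mapped reads of the library) of all 4 libraries. A member had at least 20 counts and an RPKM of at least 1 in the melatonin library (Mt), and at most 3 counts in each of the libraries of salt plus melatonin (NaCl+Mt), salt (NaCl) and water (H2O). 3 loci were left out. Because these values made the selection, the levels given here describe the members and carry no test, and the label holds only in the sense of these count limits.

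Seedlings of the cultivar SuiNong 28 (SN28) received 100 µM melatonin, 100 µM melatonin with 1% NaCl, 1% NaCl, or water, with melatonin supplied in aqueous solution, and RNA was taken from leaves. Their age is 3 weeks in the labels and 2 weeks in another description of the same experiment. There was 1 library for each treatment, so no difference could be set against the spread between plants or between libraries, and the treatment cannot be told apart from other differences between the libraries. Reads counted on transcripts numbered 23479688 in Mt, 36945028 in NaCl+Mt, 28868062 in NaCl and 22908979 in H2O.

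Melatonin is an indoleamine that plants make from tryptophan. It acts as an antioxidant, and its application to plants has been linked to growth and to stress tolerance. Among the annotated members are A- and B-type cyclins, which bind and activate the cyclin-dependent kinases that carry a cell through DNA synthesis and into mitosis. In RNA from whole leaves, fewer cells of a type and less RNA per cell cannot be told apart.

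The members together took 41504 reads in Mt, against 345 in NaCl+Mt, 219 in NaCl and 195 in H2O. In every 1000000 reads on transcripts (RPM), members had 1770 (95% exact Poisson interval 1750 to 1780) in Mt, 9.34 (8.38 to 10.4) in NaCl+Mt, 7.59 (6.61 to 8.66) in NaCl and 8.51 (7.36 to 9.79) in H2O. The rule fixes the gap between Mt and the rest. It also caps each other library at 3 counts whatever its depth. A member could thus reach at most 0.0812 RPM in NaCl+Mt, 0.104 in NaCl and 0.131 in H2O. The intervals of these 3 libraries overlapped, but they were computed on counts capped by the selection and cannot decide an order among them. The reads carry no molecular identifiers and so do not count independent molecules, and these intervals and all later ones hold counting error only. The members took 0.177% of the Mt reads, and the 10 most counted took 21.6% of the members' share.

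In the NaCl+Mt library 225 members had 0 counts, 34 had 1, 91 had 2 and 43 had 3. In the NaCl library 277 members had 0 counts, 32 had 1, 65 had 2 and 19 had 3. In the H2O library 289 members had 0 counts, 30 had 1, 57 had 2 and 17 had 3. NaCl+Mt, which also received melatonin and was the deepest library, thus had reads for the largest number of members. All 3 other libraries were at 0 for 148 members, and all 3 held reads for 31. The highest sum over the other 3 libraries was 8 counts, reached by 2 members.

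A count of 2 was commoner than a count of 1 or 3, also across all transcripts. In Mt 740 transcripts had 1 count, 1043 had 2 and 504 had 3, and in H2O these numbers were 895, 1334 and 602. Whether mates of a pair were counted singly was not tested, so a count of 2 or 3 need not stand for as many fragments. A count of 0 allows up to 3 counts, which for a transcript of 1000 bases is an RPKM of 0.103 in Mt, 0.064 in NaCl+Mt, 0.0828 in NaCl and 0.103 in H2O. Expression below that level could leave no read at this depth.

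Most members were weakly expressed in Mt as well. Their Mt counts had a median of 56, with quartiles of 36 and 101 and a range of 20 to 2140. Their Mt RPKM had a median of 2.51, with quartiles of 1.54 and 4.34 and a range of 1.01 to 211, against a median of 8.16 over the 39461 transcripts detected in Mt by the same minimum. An RPKM of at least 5 was reached by 78 members, of at least 10 by 35, of at least 20 by 13, of at least 50 by 4 and of at least 100 by 2. A count of at least 100 was reached by 101 members and of at least 1000 by 3.

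Members made up 0.996% of the transcripts detected in Mt, and this share was lower at higher expression. Between an RPKM of 1 and 2 in Mt, 158 of 3581 transcripts (4.41%) were members, and between 2 and 5, 157 of 9260 (1.7%). Between 5 and 10 the number was 43 of 9804 (0.439%), and between 10 and 50 it was 31 of 14029 (0.221%). At 50 or above, 4 of 2787 transcripts (0.144%) were members. A weak transcript needs a smaller fold difference to end at 3 counts or fewer, so the rule itself favours low levels.

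With every other library set to 3 counts and counts scaled to the mapped reads of each library, the members' Mt levels were 10.7- to 1150-fold above NaCl+Mt, with a median of 30.1. The same folds over NaCl ran from 8.3 to 888 with a median of 23.2, and over H2O from 6.7 to 717 with a median of 18.8. These are the smallest folds that the limit allows. A fold of at least 100 by this measure was reached by 50 members over NaCl+Mt, 32 over NaCl and 25 over H2O. The deeper the other library, the lower the level that 3 counts stand for, which sets the order of these numbers.

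All 393 members were at least 2-fold higher in Mt than in each other library on the scale of RPKM + 0.1, as the limits require. Over all transcripts that reached an RPKM of 1 in a library of the pair, 8061 of 41573 (19.4%) were called so in Mt:NaCl+Mt, 9177 of 41363 (22.2%) in Mt:NaCl and 8872 of 41781 (21.2%) in Mt:H2O. The members' median log2 ratio was 4.65 in Mt:NaCl+Mt, 4.68 in Mt:NaCl and 4.68 in Mt:H2O. Over all transcripts past the filter the medians were 0.12, 0.15 and 0.05 in the same order. The 3 comparisons share the Mt library.

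**Figure D1:**
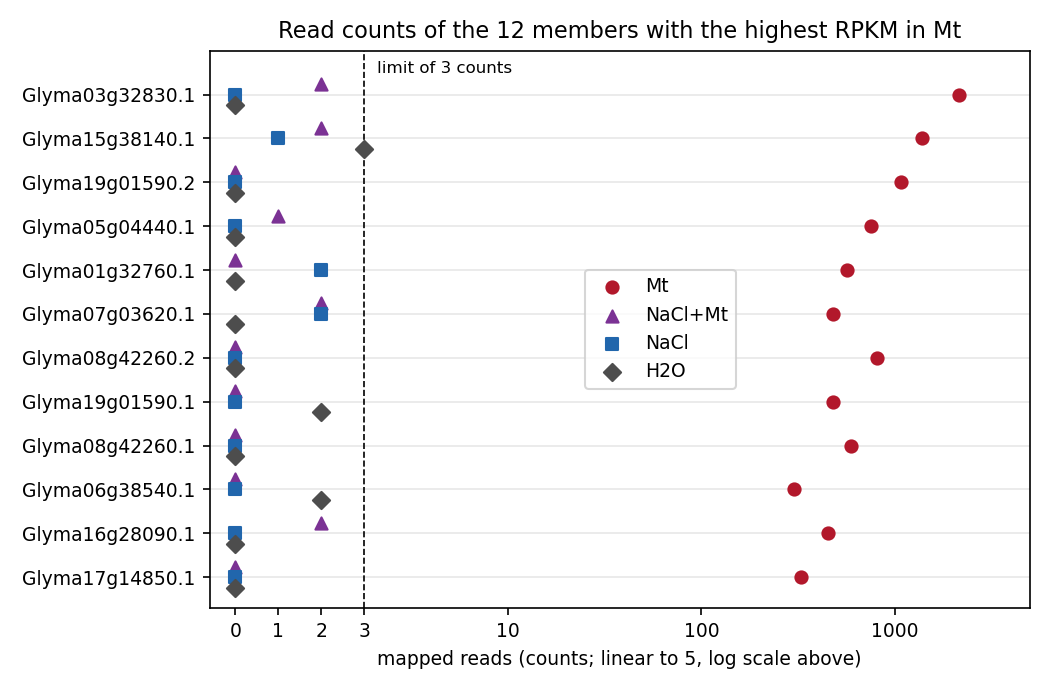
Mapped reads of the 12 members with the highest RPKM in Mt, in each of the 4 libraries; the axis is linear to 5 counts and logarithmic above, points of 1 transcript are set apart vertically, and the dashed line is the limit of 3 counts. Mt counts lie between 303 and 2140, and every other library has 0 to 3 counts.

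The most strongly expressed member was Glyma03g32830.1, a short model on chromosome 3 by its locus name with a coding length of 348 bases. It had 2140 counts and an RPKM of 211 in Mt, against 2 counts in NaCl+Mt and 0 in NaCl and H2O. Scaled to mapped reads it was 1725-fold higher in Mt than in NaCl+Mt (95% exact interval of the ratio 477 to 14249), at least 888-fold higher than in NaCl and at least 717-fold higher than in H2O. The locus before it in the table, Glyma03g32820.1, with a coding length of 315 bases, had 19 counts in Mt and 0 in the other 3 libraries, and so missed the count minimum by 1 read.

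Glyma15g38140.1, with 285 bases, had 1391 counts and an RPKM of 168 in Mt, against 2 in NaCl+Mt, 1 in NaCl and 3 in H2O. Its ratio of Mt to H2O was 466 (159 to 2262). It is 1 of the 31 members with a trace in every other library.

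The third level belonged to Glyma19g01590, of which both transcripts were members. Glyma19g01590.2 had 1077 counts and an RPKM of 64.3 in Mt, against 0 in NaCl+Mt, NaCl and H2O, at least 579-, 447- and 361-fold higher than in these libraries in that order. Glyma19g01590.1, with 597 bases against 576, had 479 counts and an RPKM of 27.6 in Mt, against 0 in NaCl+Mt, 0 in NaCl and 2 in H2O. Reads common to both models may have been split or counted in both, so these are not separate measurements of the locus.

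Glyma08g42260 was the other locus with both of its transcripts among the highest. Glyma08g42260.2 had 810 counts and an RPKM of 34.8 in Mt, and Glyma08g42260.1 had 593 counts and an RPKM of 24.9. Neither had a read in NaCl+Mt, NaCl or H2O. For Glyma08g42260.2, Mt was at least 435-fold higher than NaCl+Mt, at least 336-fold higher than NaCl and at least 271-fold higher than H2O.

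Glyma05g04440.1 had 752 counts and an RPKM of 62.9 in Mt, against 1 count in NaCl+Mt and 0 in NaCl and H2O. Glyma01g32760.1 had 569 counts and an RPKM of 42.3 in Mt, against 0 in NaCl+Mt, 2 in NaCl and 0 in H2O. Glyma07g03620.1 had 477 counts and an RPKM of 37.7 in Mt, against 2 in NaCl+Mt, 2 in NaCl and 0 in H2O. The 3 are short models of 411, 462 and 435 bases, and the reads outside Mt fell in no common library.

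Glyma06g38540.1 had 303 counts and an RPKM of 22.4 in Mt, against 0 in NaCl+Mt, 0 in NaCl and 2 in H2O. Glyma16g28090.1 had 452 counts and an RPKM of 22.3 in Mt, against 2 in NaCl+Mt and 0 in NaCl and H2O. Glyma17g14850.1 had 329 counts and an RPKM of 22.0 in Mt, against 0 in each other library, at least 177-fold higher than NaCl+Mt, 137-fold higher than NaCl and 110-fold higher than H2O. Of the 12 members with the highest RPKM, 4 had no read outside Mt. By count rather than RPKM, the longer Glyma03g16140.1 also ranked among the first 8, with 572 counts over 1119 bases and an RPKM of 17.6 in Mt, against 0 in NaCl+Mt, NaCl and H2O. None of these loci is named in the study's pathway lists, and no product name was assigned to them here.

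**Figure D2:**
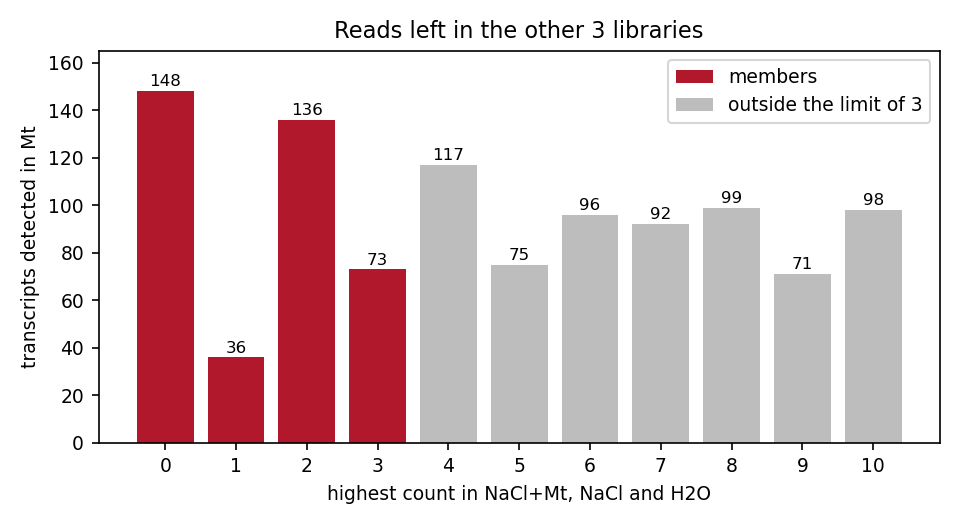
Number of transcripts detected in Mt, by the highest count that any of NaCl+Mt, NaCl and H2O held. The 148, 36, 136 and 73 transcripts at 0 to 3 counts are the 393 members, and 117 transcripts stood at 4 counts.

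The limit of 3 counts did not fall at a gap in the data. Among transcripts detected in Mt, 148 had a highest count of 0 in the other libraries, 36 of 1, 136 of 2 and 73 of 3, and 117 more had 4. Just inside were Glyma09g37370.1, with 76 counts in Mt against 3 in NaCl+Mt, 2 in NaCl and 3 in H2O, and Glyma13g30320.1, with 97 against 3, 2 and 3. Glyma06g02790.1 followed with 56 in Mt against 3 in NaCl+Mt, 2 in NaCl and 2 in H2O. Just outside, at 4 counts, were some with a stronger signal in Mt than most members.

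Glyma13g19290.1 was such a transcript, with 126 counts and an RPKM of 15.7 in Mt, against 4 in NaCl+Mt and 0 in NaCl and H2O. Glyma09g04370.1 had 322 counts and an RPKM of 11.8 in Mt, against 0 in NaCl+Mt, 0 in NaCl and 4 in H2O. Glyma12g28790.2 had 78 counts and an RPKM of 6.34 in Mt, against 0 in NaCl+Mt, 4 in NaCl and 0 in H2O. These 3 had higher Mt counts than the median member. Ties were ordered by Mt RPKM, highest first, so they need not stand for the other transcripts at 4 counts.

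At the RPKM minimum, Glyma14g25360.1 (53 counts, RPKM 1.01), Glyma08g39960.1 (28 counts, RPKM 1.01) and Glyma18g06260.1 (88 counts, RPKM 1.02) were just inside in Mt. Glyma11g08330.1 (43 counts, RPKM 0.995), Glyma08g04600.1 (41 counts, RPKM 0.993) and Glyma14g07340.1 (35 counts, RPKM 0.988) were just outside. At the count minimum, Glyma12g06930.1, Glyma07g17690.1 and Glyma17g35440.1 were inside with 20 counts each in Mt, and Glyma03g01040.1, Glyma10g26740.1 and Glyma03g32820.1 outside with 19 each. The RPKM minimum alone kept out 133 transcripts, with a median coding length of 1419 bases. Of these, 10 had reads in Mt but were listed at an RPKM of 0.

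**Figure D3:**
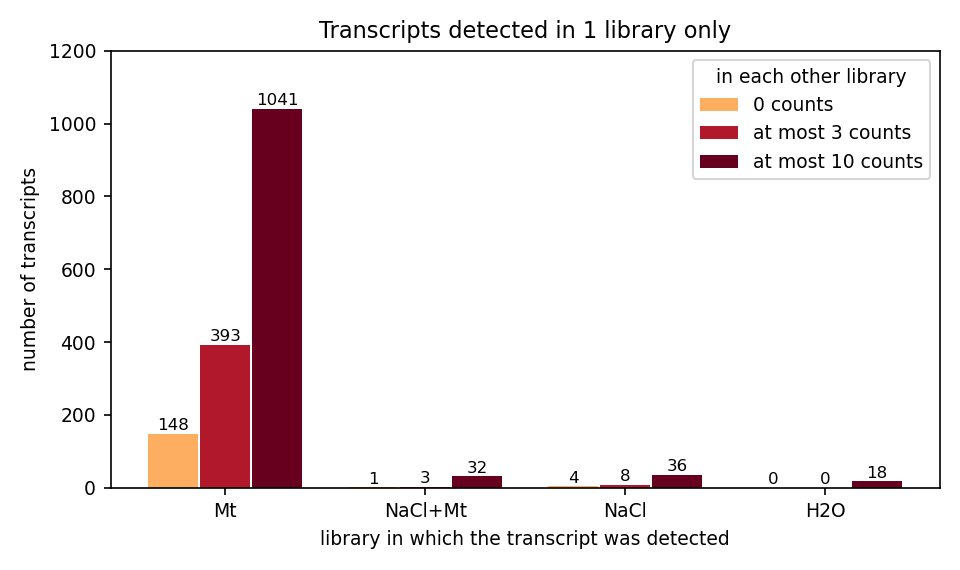
Number of transcripts with at least 20 counts and an RPKM of at least 1 in 1 library and at most 0, 3 or 10 counts in each of the other 3, for each library in turn. At the limit of 3 the numbers are 393 in Mt, 3 in NaCl+Mt, 8 in NaCl and 0 in H2O.

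The same rule was applied to each library in turn, with the other 3 held to the limit. It found 393 transcripts for Mt, against 3 in NaCl+Mt, 8 in NaCl and 0 in H2O. With all libraries scaled to the smallest total the numbers were 432, 1, 7 and 0 in the same order. NaCl+Mt had the most reads and H2O the fewest, and the part of depth in these numbers, beyond this scaling, was not tested. Over all transcripts, Mt also had the most with an RPKM of at least 1. They numbered 40186 in Mt, 37183 in NaCl+Mt, 36345 in NaCl and 37116 in H2O. With 10 counts allowed in each other library, the rule found 1041 transcripts in Mt, 32 in NaCl+Mt, 36 in NaCl and 18 in H2O. The number was highest in Mt at every limit tried, as a property of 1 library of each treatment.

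Annotation was taken from the study's pathway lists, which name 208 of the loci used here. These lists were chosen in the study on the same libraries, so their direction is not independent evidence. They name 4 of the 381 member loci, and 377 have no symbol here. Of the 4, 3 are cyclins of the cell cycle list and 1 is an enzyme of amino acid metabolism. The lists of DNA replication, the light reactions, the Calvin cycle, starch and sucrose, ascorbate, glycolysis and fatty acid synthesis held 0 members. Over all transcripts 0.704% were members, so a count of 0 says little for lists this short.

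Glyma04g07550.1, an A-type cyclin (CYCA), had 39 counts and an RPKM of 1.51 in Mt, against 0 in NaCl+Mt, NaCl and H2O. Mt was at least 21.0-fold higher than NaCl+Mt, at least 16.2-fold higher than NaCl and at least 13.1-fold higher than H2O. Glyma13g10090.1, a second CYCA locus, had 122 counts and an RPKM of 2.77 in Mt, against 0 in NaCl+Mt, 2 in NaCl and 2 in H2O. For it Mt was at least 65.5-fold higher than NaCl+Mt, with a ratio of 76.0 (20.6 to 634) to NaCl and of 61.3 (16.6 to 512) to H2O. A-type cyclins act mainly in DNA synthesis and up to early mitosis.

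Glyma04g00230.1, a B-type cyclin (CYCB), had 127 counts and an RPKM of 3.61 in Mt, against 1 in NaCl+Mt, 2 in NaCl and 1 in H2O. Its second transcript, Glyma04g00230.2, had 105 counts in Mt, against 2 in NaCl+Mt, 8 in NaCl and 0 in H2O, and was no member. B-type cyclins act at the entry into mitosis. NaCl held the most reads of this locus outside Mt.

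The fourth annotated member was Glyma06g35630.1, listed as TAT, tyrosine aminotransferase, which takes the amino group from tyrosine in the first step of its breakdown. It had 235 counts and an RPKM of 6.34 in Mt, against 0 in NaCl+Mt, NaCl and H2O. Mt was at least 126-fold higher than NaCl+Mt, at least 97.5-fold higher than NaCl and at least 78.7-fold higher than H2O. Its list, amino acid metabolism, has 27 loci, of which 1 was a member.

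**Figure D4:**
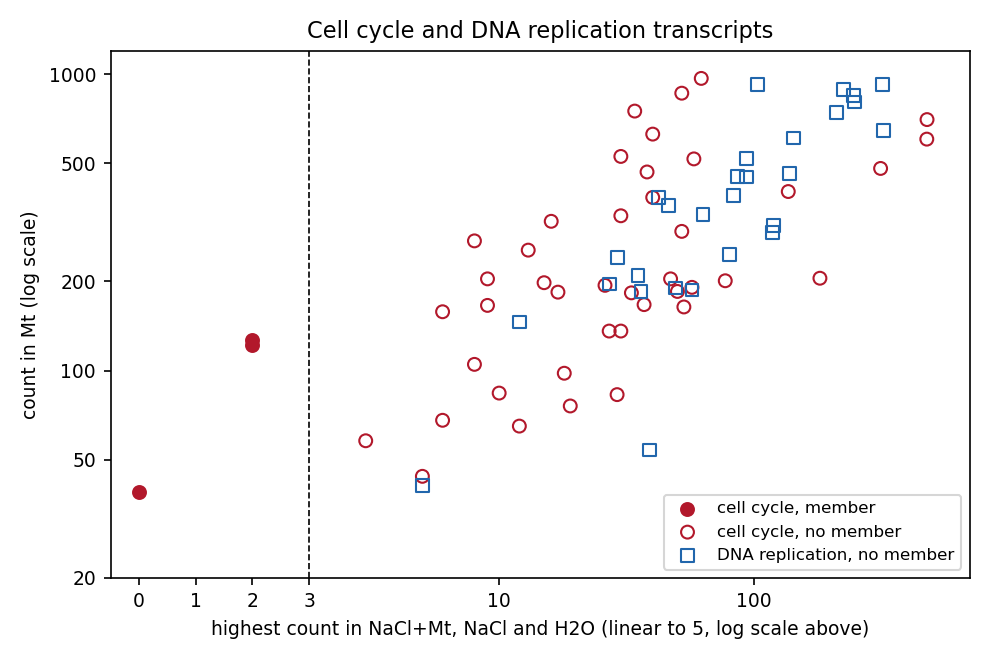
Counts in Mt (log axis) against the highest count in NaCl+Mt, NaCl and H2O (linear to 5, then log) for the 45 transcripts of the cell cycle list and the 28 of the DNA replication list; the dashed line is the limit of 3 counts. The 3 cyclin members are the filled points left of the line, and all other transcripts lie right of it.

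The 3 cyclins belonged to a list that was higher in Mt nearly throughout. Of the 45 cell cycle transcripts (38 loci), 44 were at least 2-fold higher in Mt:NaCl+Mt, 45 in Mt:NaCl and 45 in Mt:H2O, and 0 were lower in any. The median log2 ratio was 4.58, 3.65 and 4.93 in the same order, against 0.12, 0.15 and 0.05 over all transcripts past the filter. The summed RPKM of the list was 369 in Mt, against 54.6 in NaCl+Mt, 53.5 in NaCl and 24.7 in H2O. An RPKM of at least 1 was reached by all 38 loci in Mt, against 4 in NaCl+Mt, 7 in NaCl and 3 in H2O. Several transcripts of the list had reads outside Mt but a listed RPKM of 0 there. Glyma01g43980.1, for example, had 31 counts in NaCl+Mt, 40 in NaCl and 16 in H2O, each listed at an RPKM of 0. Such values raise the ratios on RPKM + 0.1 and lower the sums outside Mt.

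Of the 45 transcripts of the list, 12 had at most 10 counts in each other library, and the 3 members are among them. By the same limit 1041 of all 55787 transcripts would be members. The 6 CYCA transcripts that were no members had 76 to 518 counts in Mt and a highest count of 8 to 77 elsewhere. The 10 CYCB transcripts that were no members had 105 to 968 in Mt and a highest count of 6 to 62 elsewhere. The 12 came from 9 loci, and with 0 counts allowed elsewhere 1 transcript of the list would be a member.

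Glyma04g42540.1, another CYCA, was close to the limit, with 274 counts in Mt, against 0 in NaCl+Mt, 8 in NaCl and 2 in H2O. Glyma08g25470.1 (CYCB) had 158 in Mt, against 2 in NaCl+Mt, 6 in NaCl and 0 in H2O, and Glyma14g24480.1 (CYCA) had 204, against 4, 9 and 2. These 3 cyclins, chosen after their values were seen, had the most reads outside Mt in NaCl. So did many other transcripts of the list, while some did not. Glyma11g37380.3, a MAD2 of the spindle checkpoint, had 58 in Mt, against 4 in NaCl+Mt, 4 in NaCl and 1 in H2O, and Glyma11g37380.1 had 68, against 5, 4 and 6.

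The DNA replication list, with 22 loci and 28 transcripts, was higher in Mt in all 28 transcripts in each of the 3 comparisons. It gave 0 members, beside a share of 0.704% over all transcripts, so this count says little for a list of its size. Its summed RPKM was 194 in Mt, against 28.4 in NaCl+Mt, 26.3 in NaCl and 28.4 in H2O. In this list too, some transcripts with reads outside Mt were listed at an RPKM of 0. Its closest transcript was Glyma07g32130.1, a subunit of replication protein A (RFA3), which coats single-stranded DNA, with 41 counts in Mt, against 5 in NaCl+Mt, 0 in NaCl and 1 in H2O.

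Leaf genes were abundant in all 4 libraries, and their summed RPKM was highest in Mt. A photosystem I subunit, PsaF (Glyma05g00620.1), had an RPKM of 1414 in Mt, against 709 in NaCl+Mt, 955 in NaCl and 289 in H2O. The small subunit of Rubisco, rbcS (Glyma13g07610.1), had 5644 in Mt, against 2781 in NaCl+Mt, 3530 in NaCl and 1019 in H2O. The summed RPKM of 23 light reaction loci was 4956 in Mt, against 2415 in NaCl+Mt, 2620 in NaCl and 1019 in H2O. Of their 25 transcripts, 16 were at least 2-fold higher in Mt:NaCl+Mt, 15 in Mt:NaCl and 22 in Mt:H2O, and 0 were lower. Of 6 Calvin cycle transcripts, 2 were higher and 1 lower in Mt:NaCl+Mt. In Mt:NaCl 2 were higher and 0 lower, and in Mt:H2O 4 were higher and 1 lower. Leaf genes were thus abundant in each library of the labelled tissue. Markers of dividing cells, the cell cycle and DNA replication lists, were also higher in Mt, where the rule puts the members. All these lists were chosen in the study on the same libraries, so their direction is not independent evidence. The part of dividing cells in the members' levels was not tested.

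Length entered the rule through the RPKM minimum, which is scaled to it, and through the count limits, which are not. The lengths in the deposited table are nearly all multiples of 3 (95.8%), and are called coding lengths here. Members had a median of 819 bases, with quartiles of 552 and 1146 and a range of 198 to 3129, against 1087 for the transcripts detected in Mt and 1026 for all. Among transcripts with an RPKM of 1 to 5 in Mt, the 315 members had a median of 864 bases, against 1125 for the 12526 others. Among those with 20 to 101 counts in Mt, the 295 members had 750 bases and the 8451 others 744. The members were thus shorter within this RPKM range, in which levels were not matched further, and of like length within the count range. At a given RPKM a shorter transcript has fewer counts and meets the count limit elsewhere more easily, so the rule itself favours short members there. The RPKM minimum alone kept out transcripts with a median of 1419 bases.

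Loci with several transcripts were scarcer among the members. They numbered 27 of the 381 member loci (7.09%), against 19.5% of the 31271 loci detected in Mt and 14.3% of all loci. These shares were not matched for expression level or length. The methods word the counts as reads mapped uniquely to a gene, and how reads were divided among the models of 1 locus is not given in the sources used here. At 10 of the 27, every transcript was a member. Glyma04g07270 was the only locus with 3 member transcripts. Glyma04g07270.1 had 30 counts in Mt, against 3 in NaCl+Mt, 0 in NaCl and 0 in H2O, Glyma04g07270.2 had 27 against 3, 1 and 0, and Glyma04g07270.3 had 39 against 0 in each.

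At the other 17 loci, 20 transcripts beside the members were outside the limits, with 13 to 244 counts in Mt. Of these, 16 had more than 3 counts in another library, up to 13, and 4 missed only the Mt minimum. The 13 counts belonged to Glyma08g24050.1, which had 144 in Mt, against 13 in NaCl+Mt, 0 in NaCl and 2 in H2O. Its member transcript, Glyma08g24050.2, of the same length, had 127 in Mt, against 3 in NaCl+Mt and 0 in NaCl and H2O. At a locus like this, the limits were met by a transcript model and not by the locus, though both models shown had most reads in Mt. The 4 transcripts that missed only the Mt minimum stayed within the limit of 3 counts in each other library. With counts summed over the transcripts of a locus, 370 loci met the rule.

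By the locus names, members lay on all 20 chromosomes. Their share of loci ran from 0.449% on chromosome 18 (11 of 2452) to 1.24% on chromosome 17 (28 of 2252), against 0.825% of the 46177 chromosomal loci. Some member loci were next to each other: 35 of them (9.19%) stood in 17 runs of neighbours in the table's order, 16 of 2 loci and 1 of 3. Of the 762 neighbouring places of member loci, 36 (4.72%) were held by a member. Neighbours that are copies of each other could share reads, which was not tested.

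The run of 3 was on chromosome 17. Glyma17g14840.1 had 59 counts and an RPKM of 4.97 in Mt, Glyma17g14850.1 had 329 and 22.0, and Glyma17g14860.1 had 106 and 8.87. None of them had a read in NaCl+Mt, NaCl or H2O. The next locus, Glyma17g14880.1, was at 0 in all 4 libraries. After it, Glyma17g14890.1 had 770 counts and an RPKM of 63.9 in Mt, against 6 in NaCl+Mt and 0 in NaCl and H2O, and was kept out by NaCl+Mt alone. The coding lengths of these 5 models were 408, 513, 411, 417 and 414 bases.

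**Figure D5:**
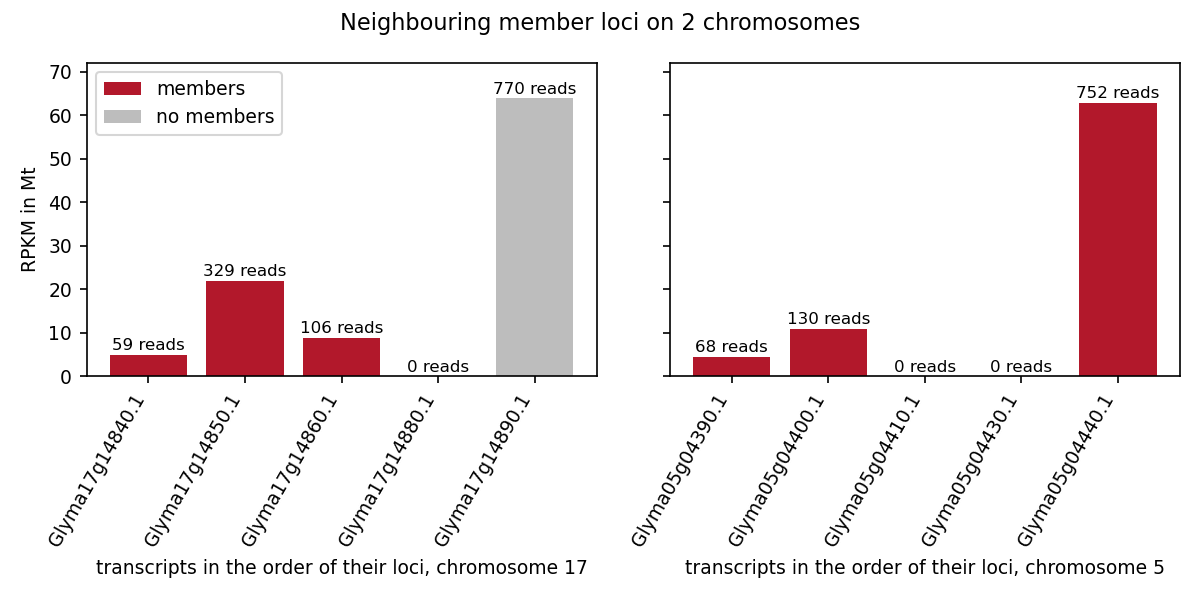
RPKM in Mt of 5 consecutive loci on chromosome 17 (left) and 5 on chromosome 5 (right), with the Mt counts written above the bars; filled bars are members and grey bars are not. Both stretches end in the most expressed locus, at 63.9 and 62.9, after 1 or 2 loci without reads.

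A stretch on chromosome 5, examined because Glyma05g04440.1 lies there, had a similar layout. Glyma05g04390.1 had 68 counts and an RPKM of 4.5 in Mt, and Glyma05g04400.1 had 130 and 10.9, both against 0 in each other library. Glyma05g04410.1 and Glyma05g04430.1 were at 0 in all 4 libraries, before Glyma05g04440.1 with its 752 counts. These 5 models had 519, 411, 333, 405 and 411 bases. Whether the stretches are copies of each other was not tested, since no sequence of these loci was used here.

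Among the runs of 2, those with the most Mt reads were taken. Glyma05g35320.1 had 43 counts in Mt, against 1 in NaCl+Mt and 0 in NaCl and H2O, and its neighbour Glyma05g35330.1 had 341, against 1, 2 and 0. Glyma06g10740.1 had 131 in Mt, against 2 in NaCl+Mt, 0 in NaCl and 2 in H2O, and Glyma06g10750.1 had 172, against 0 in each. In the first pair the Mt counts lay far apart, and in the second they were close.

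Glyma06g38530.1 had 32 counts in Mt, against 0 in NaCl+Mt, 2 in NaCl and 0 in H2O, beside Glyma06g38540.1 with its 303. Glyma18g06260.1 had 88 in Mt, against 2 in NaCl+Mt, 0 in NaCl and 2 in H2O, beside Glyma18g06270.1 with 228, against 0 in each. The first locus of this pair has a coding length of 2973 bases, so its RPKM of 1.02 was far below the 17.5 of the second.

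Loci next to members that were no members themselves were also compared. Past the RPKM filter, 145 of 502 (28.9%) were at least 2-fold higher in Mt:H2O, with a median log2 ratio of 0.18. Over all other loci the number was 7399 of 32668 (22.6%), with a median of 0.09. Most neighbours of a member, therefore, were not called higher in Mt, and the difference in shares was not tested.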

How the data were processed

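RNA-seq was done on leaves, with 1 library for each of 4 treatments. After trimming adaptors and dropping reads of low quality, the authors mapped the remainder with BWA (version 0.7.4 in the submitters' processing notes); the counting tool and annotation version are not given in the sources used here. The deposited table holds, per transcript, its length, the counts of mapped reads and the RPKM that the authors computed from them. Some transcripts with reads are listed at an RPKM of 0. Totals of mapped reads behind the RPKM were derived from counts, lengths and RPKM: 29090306 in Mt, 46886147 in NaCl+Mt, 36222076 in NaCl and 29231289 in H2O. To within a few reads these are the totals of all mapped reads that the study reports. Its methods name uniquely mapped reads as the divisor, and the reported numbers of those are lower.

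The members and lists were chosen with earlier results of these data known. Log2 ratios were computed on RPKM + 0.1. A count of 0 was set to 3 per library for a lower bound, which takes the Mt count as observed and is no confidence limit. Ratios to 1 to 3 counts carry exact 95% intervals. Named were the 12 members highest in RPKM and the 8 highest in counts in Mt, members in the pathway lists, loci with 3 member transcripts, the 5 longest runs (ties by Mt reads), and the 3 transcripts nearest to each limit on either side. Ties at the limit of 3 counts were ordered by summed counts elsewhere and then by Mt RPKM, highest first. The NaCl-only transcripts and the loci around the runs were named after their values were seen. The calculation of the rule was checked on simulated counts with counting noise only and planted members well inside the limits. This does not measure how the rule performs on real libraries. No locus of the table matched the RefSeq gene table, so classes by product name, protein pairs and promoter motifs were not analysed here. 3 loci are not reported here. Python 3.11.15, pandas 2.3.3, NumPy 2.4.6 and SciPy 1.17.1 were used. The alternatives changed the 3 limits, scaling, pseudocount and the unit of a transcript or locus.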

Additional observations from a re-analysis of the deposited data

How the results depend on the processing

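The number of members rested on the limits. It was 148 with 0 counts in each other library, 184 with at most 1, 1041 with at most 10, 225 with at least 50 counts in Mt and 78 with an RPKM of at least 5. The other limits, scalings and units of counting gave 370 to 585. The cell cycle list had 12 members with at most 10 counts and 1 with 0, and the DNA replication list had 1 with at most 10. The median log2 ratio in Mt:H2O was 7.92 with a pseudocount of 0.01 and 1.81 with 1, since most members have an RPKM listed at 0 in H2O. The median fold over 3 counts in H2O was 18.2 to 18.8 under every scaling tried, and 19.0% of all transcripts were called higher in Mt:H2O without the RPKM filter. Chosen after seeing the data were the same limits for the other libraries: NaCl+Mt alone had 1 transcript with 0 counts elsewhere, 32 with at most 10 and 1 after scaling to the smallest total, NaCl alone had 4 with 0 and 36 with at most 10, and H2O alone had 18 with at most 10. Motifs in promoters, product classes and protein pairs were not run, for want of matching sequences. With 1 library per treatment, no replicate could be left out. No paired analysis was possible because each treatment has 1 library.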

Other observations

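The few transcripts detected in another library alone are given as values. For NaCl the highest was Glyma05g05430.1, with 760 counts and an RPKM of 24.0 in NaCl and 0 counts in Mt, NaCl+Mt and H2O. Both transcripts of Glyma17g15710 met the rule for NaCl, Glyma17g15710.1 with 174 counts in NaCl, against 2 in Mt and 0 in NaCl+Mt and H2O, and Glyma17g15710.2 with 54, against 0 in each. Glyma17g03040.1 had 109 counts in NaCl, against 2 in Mt, 2 in NaCl+Mt and 0 in H2O. For NaCl+Mt the highest count was that of Glyma17g02080.1, with 77 in NaCl+Mt, against 0 in Mt, 1 in NaCl and 2 in H2O.

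A pair of short neighbouring models that includes the most expressed member, and a run of similar coding lengths on chromosome 19, were picked after their values were seen. Glyma03g32820.1 and Glyma03g32830.1, of 315 and 348 bases, had 19 and 2140 counts in Mt. Glyma19g35520.1 and Glyma19g35530.1, of 300 and 342 bases, had 39 and 96 counts in Mt, against 0 and 3 in NaCl+Mt and 0 in NaCl and H2O. Whether these models share sequence or reads was not tested.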
